A study of Rattus norvegicus with 6 samples.

Results

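The 8 genes described here handle heme and the iron that comes out of it, and they were measured in tendon of Sprague-Dawley rats. They were chosen by name: Hmox1, Hmox2, Hp, Tfrc, Fth1, Ftl1, Slc40a1 and Cp. Each has 1 probe set on the array that names it alone, so all 8 were measured among the 22093 genes tested. The injured group held 3 rats with injured tendons and the control group 3 rats with control surgery, 1 array each. Tendon was taken 1 week after the operation in the injured rats, and the labels give no other time for the controls. Rats were assigned at random. The sources used here do not give age, sex, the tendon used or the way it was injured. The comparison asks how heme and iron transcripts differ between injured tendon and tendon after control surgery.

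Heme set free from broken red cells or from muscle myoglobin is cut open by heme oxygenase, which yields biliverdin, carbon monoxide and iron. Cells take up transferrin-bound iron through the transferrin receptor, keep the surplus in ferritin and let it out through ferroportin, while ceruloplasmin oxidises the exported iron so that transferrin can carry it. Iron regulatory proteins set much of this balance after transcription, through the stability of the transferrin receptor messenger and the translation of the ferritin messengers. An array reads messenger levels only. In wounds with bleeding, macrophages clear much of the hemoglobin and heme.

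One injured array differed widely from the other 2, which bears on every value below. Across genes, which are not independent of one another, r was 0.965 between injured replicates 2 and 3, and 0.687 to 0.833 between these and the control arrays. Injured replicate 1 had r of 0.951 to 0.966 with the control arrays, although its tendon and keratinocyte markers, given below, differed from theirs. Probe sets with no gene name, taken here as a background level, had a median log2 signal of 5.59, 6.61 and 6.50 on injured replicates 1, 2 and 3, against 5.49 to 5.79 in control tendon. The median of 1277 olfactory and vomeronasal receptor genes, which tendon is not known for, lay -0.03, 2.11 and 2.03 from the control mean in the 3 injured rats, and that of 11 reference genes -0.29, -2.28 and -1.81. Myh4, a fast myosin of skeletal muscle, read 19.93, 15.78 and 13.32 in the injured rats, and 19.93, the highest value the arrays gave, in all 3 control rats. Acta1, the skeletal muscle actin, read 19.93, 14.38 and 19.86 in the injured rats and 19.93 in the control rats, so not every muscle marker was low on injured replicate 3. Of the reference genes, Gapdh was near the upper limit on all arrays, and B2m read 14.39, 12.15 and 11.75 in the injured rats, and 14.62, 15.31 and 14.41 in the control rats. Tendon transcripts were present in the control group. Kera (keratocan, a tendon proteoglycan) read 9.37, 8.90 and 9.79 on injured replicates 1, 2 and 3, and 15.46, 16.92 and 19.17 on the control arrays. Thbs4, a matrix gene of tendon, read 13.45, 8.80 and 12.96 on the injured arrays, and 15.11, 16.02 and 17.79 on the control arrays. Over 12 muscle markers the mean level was 17.82 to 18.73 on the control arrays, against 11.56 to 14.04 over 10 tenocyte markers. On injured replicates 1, 2 and 3 these means were 18.40, 11.04 and 12.81 for muscle and 8.86, 7.23 and 8.18 for tenocytes. The control samples and injured replicate 1 thus held much muscle transcript, and values given here for control tendon include it. The tendon transcription factors Scx and Mkx, chosen after their values were seen, stayed between 5.44 and 6.74 on the 6 arrays, at most 0.95 above background. In these bulk samples, fewer cells of a type, less RNA per cell and a difference in RNA or array quality cannot be told apart.

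**Figure D1:**
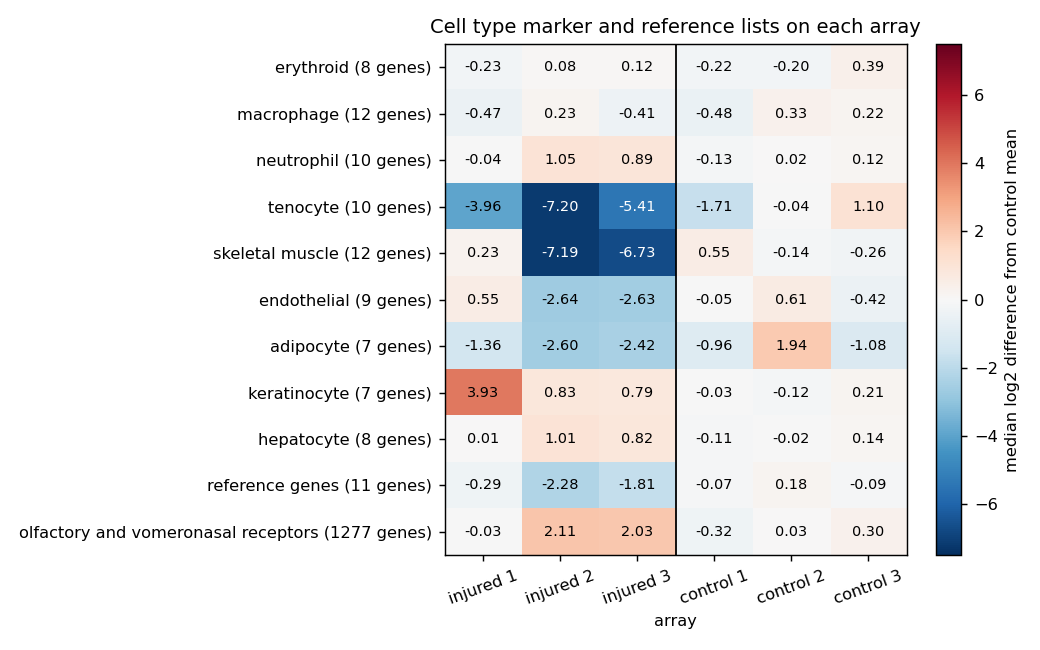
Median log2 difference from the control mean of each cell type marker list, of the reference genes and of the receptor genes (rows) on each array (columns, injured left of control); colour and number show the same value. Muscle markers were at 0.23, -7.19 and -6.73 in the 3 injured rats, and keratinocyte markers stood out on injured replicate 1, at 3.93.

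None of the 8 genes passed the threshold, a limma adjusted p of 0.05 over all genes tested, nor did any gene at all (0% of 22093). One gene, Hmox1, lay above all 3 control arrays on all 3 injured arrays, as did 7.09% of all genes. Tfrc and Cp lay below all 3 control arrays on all 3 injured arrays, as did 8% of all genes. The same genes had an unadjusted p under 0.05, where 4.39% of all genes were higher and 7.25% lower. For the other 5 members the groups overlapped. The median difference over the 8 members was 0.07 on the log2 scale, against 0.15 over all genes. All differences below are injured minus control. The level each array is scaled to matters: centring arrays on their unnamed probe sets moved every difference by -0.61, centring on all probe sets moved every one by -0.53, and quantile normalization moved the median over all genes by -0.43.

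**Figure D2:**
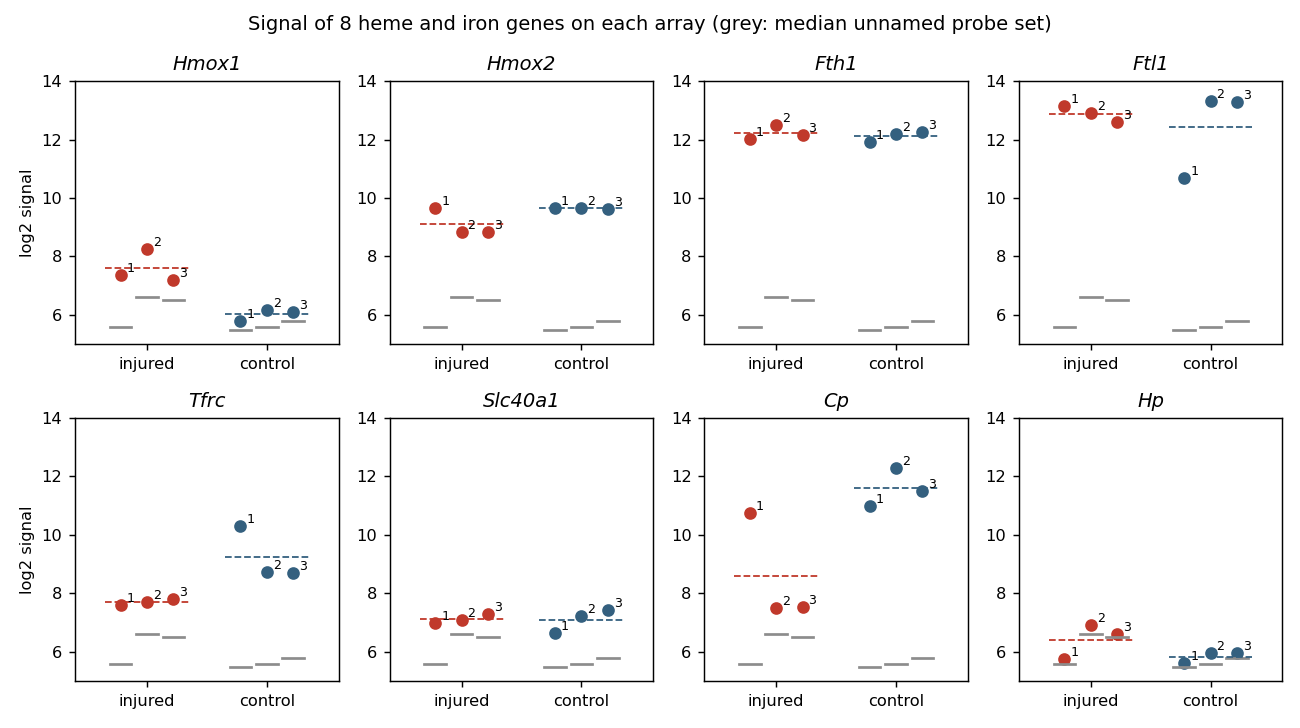
Log2 signal (vertical axis) of the 8 genes on each array, injured left of control, with the replicate number beside each point, the group mean as a dashed line and the array's median unnamed probe set as a grey bar. Hmox1 is above the controls on every injured array, Tfrc and Cp are below them, and Hp sits on the grey bars in both groups.

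Hmox1, the inducible heme oxygenase, had log2 signals of 7.36, 8.26 and 7.21 on injured replicates 1, 2 and 3, and of 5.80, 6.17 and 6.10 on control replicates 1, 2 and 3. The lowest injured array was thus 1.04 above the highest control array. The means were 7.61 ± 0.57 in injured tendon and 6.02 ± 0.20 in control tendon (SD, n = 3 each), a difference of 1.59 (SE 0.32), or 3.0-fold, with an unadjusted limma p of 0.0029 and an adjusted p of 0.322. In control tendon the gene was close to background, 0.31 to 0.59 above the median unnamed probe set of its array. On injured replicates 1, 2 and 3 it was 1.77, 1.65 and 0.71 above that level. Against this background the groups stayed apart only narrowly, at 0.71 against 0.59. With that centring the difference was 0.97 (SE 0.33, unadjusted limma p of 0.0261, adjusted p = 0.289). The mean level of the receptor genes was 5.78, 7.96 and 7.88 on the injured arrays, and 5.46, 5.85 and 6.14 on the control arrays. Hmox1 read below it on injured replicate 3 and control replicate 3, so against the receptor genes the groups overlapped.

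Hmox1 also read high on injured replicate 1, where the median gene was at its control level. That array alone was 1.34 above the control mean (SE 0.22, unadjusted limma p of 0.0038, adjusted p = 0.343), while the receptor genes and the median over all genes tested were at -0.03 and -0.02 there. It was the 1 member with an unadjusted p under 0.05 on that array, where 6.59% of all genes had one. Such a fit takes the spread from the 3 control arrays and assumes it for the lone injured one. On injured replicates 2 and 3 Hmox1 was 2.24 and 1.19 above the control mean, against 2.11 and 2.03 for the receptor genes. Injured replicates 2 and 3 without replicate 1 gave 1.71 (SE 0.34, limma adjusted p = 0.0106), in a comparison that called 60.7% of all genes.

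Hmox2, the heme oxygenase that most cells make at a steady level, had log2 signals of 9.66, 8.83 and 8.84 on injured replicates 1, 2 and 3, and of 9.67, 9.66 and 9.61 on control replicates 1, 2 and 3. It was the steadiest member in control tendon, with an SD of 0.03, and injured replicate 1 lay within the control range. The difference was -0.54 (SE 0.26, limma adjusted p = 0.322), and -1.15 (SE 0.53, adjusted p = 0.289) with each array centred on background. Injured replicates 2 and 3 without replicate 1 gave -0.81 (SE 0.10, adjusted p = 0.00366), and replicate 1 alone gave 0.01. The median reference gene read lower still on both, at -2.28 and -1.81.

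Markers of cells that carry or clear heme were set beside Hmox1. Of 12 macrophage markers, 4 were below all control arrays on the injured arrays and 0 above; their median was at -0.47, 0.23 and -0.41 on injured replicates 1, 2 and 3, and at -0.48, 0.33 and 0.22 on the control arrays. Their summed linear signal was 2220 to 2860 in injured and 2400 to 5570 in control tendon, and at most 1 of the 12 was at or below background on any array. Mrc1 and C1qa, the brightest of them, differed by -1.59 (SE 0.51) and -0.49 (SE 0.20). The list was mixed, with a higher mean in injured tendon for 4 of the 12 and a lower one for 8. Of 10 neutrophil markers, 2 were above all control arrays, and the summed linear signal came to 429, 3580 and 1220 in the 3 injured rats, and 400 to 477 in control tendon, with 5 to 7 of the 10 at or below background on every array. Cxcr2, a chemokine receptor, read 5.99, 9.23 and 7.6 on the injured arrays, and 6.12, 6.35 and 6.45 on the control arrays. Mmp8, the neutrophil collagenase, read 5.74, 9.84 and 8.06 on the injured arrays, and 5.63, 5.79 and 5.83 on the control arrays. Keratinocyte markers, 6 of 7 above all control arrays, summed to 20500, 914 and 756 on injured replicates 1, 2 and 3, and to 351 to 446 in control tendon. Krt1, a keratin of the outer skin layers, read 14.04, 5.75 and 5.61 on the injured arrays, and 5.31, 4.97 and 5.29 on the control arrays. Dsg1, a desmosome cadherin, read 9.72, 7.57 and 7.21 on the injured arrays, and 5.63, 5.62 and 6.11 on the control arrays. The median neutrophil marker exceeded the control mean by 1.05 and 0.89 in injured rats 2 and 3. Unnamed probe sets did so by nearly as much, 0.99 and 0.88. The higher neutrophil sums of these rats thus rest on a few markers, Cxcr2 and Mmp8 among them, and not on the whole list. Hmox1 was above control both on the array with high keratinocyte markers and on those where these few neutrophil markers read high. The part of these cells in its difference was not tested.

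Globin transcripts read low on the injured arrays, where Hmox1 read high. Hba-a1, an alpha-globin gene, read 13.54, 9.52 and 9.72 on injured replicates 1, 2 and 3, and 13.97, 14.08 and 15.32 on control replicates 1, 2 and 3. Hbb-b1, a beta-globin gene, read 11.21, 8.78 and 9.40 on the injured arrays, and 12.61, 12.55 and 16.20 on the control arrays. Both were below every control array on every injured array, with differences of -3.53 (SE 1.16) and -3.99 (SE 1.19) and a limma adjusted p of 0.322 each. The erythroid list as a whole was split, with 4 of 8 markers higher and 4 lower in the mean and a median difference of 0.04. Over the list, 3 of 8 markers were below all control arrays and 0 above. The summed linear signal, to which the brightest genes add most, was 1920 to 14700 in injured and 22900 to 117000 in control tendon. Of the 8 markers, 4 were at or below background on each injured array and 3 or 4 on each control array. Globin messengers come from young red cells and do not measure hemoglobin protein.

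Hp encodes haptoglobin, the plasma protein that binds free hemoglobin. It had log2 signals of 5.75, 6.90 and 6.59 on injured replicates 1, 2 and 3, and of 5.62, 5.94 and 5.94 on control replicates 1, 2 and 3. Every one of these values was within 0.09 to 0.36 of the array's median unnamed probe set, so Hp read near background in both groups. Its difference of 0.58 (SE 0.33, limma adjusted p = 0.324) became -0.03 once each array was centred on that background. Hepatocyte markers, another sign of plasma protein transcripts, had a median of 0.01, 1.01 and 0.82 on injured replicates 1, 2 and 3, close to the unnamed probe sets (-0.03, 0.99 and 0.88). Ttr and Fgb, the brightest of them, read at most 7.59 and 8.01 in injured tendon, and 6.59 and 6.47 in control tendon.

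Tfrc encodes transferrin receptor 1, which brings transferrin-bound iron into the cell. It had log2 signals of 7.59, 7.71 and 7.80 on injured replicates 1, 2 and 3, and of 10.29, 8.73 and 8.69 on control replicates 1, 2 and 3. The 3 injured arrays lay within 0.21 of one another, and the highest of them was 0.89 below the lowest control array. The means were 7.70 ± 0.11 in injured tendon and 9.24 ± 0.91 in control tendon (SD, n = 3 each), a difference of -1.54 (SE 0.46), with an unadjusted limma p of 0.0174 and an adjusted p of 0.322.

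The size of the Tfrc difference rests in part on control replicate 1, without which it was -1.01 (SE 0.18, limma adjusted p = 0.366). Injured replicate 1 alone gave -1.65 (SE 0.77, unadjusted limma p of 0.1, adjusted p = 0.873), and injured replicates 2 and 3 without it gave -1.48 (SE 0.53, adjusted p = 0.0604). Against the array's own background, Tfrc was at 2.0, 1.10 and 1.30 on injured replicates 1, 2 and 3, and at 4.80, 3.15 and 2.90 on the control arrays. With that centring the difference was -2.15 (SE 0.57, adjusted p = 0.289).

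Of the 8 members, 4 matched the RefSeq promoter table on build GRCr8, among them Tfrc and Cp, which lay below the controls on every injured array and are shown for that reason. The stretches are the 250 bases before the annotated start of transcription, read in the direction of the gene, from chr11:81690319-81690568 on the minus strand for Tfrc and chr2:104368420-104368669 on the plus strand for Cp. Capitals mark ACGTG on either strand, 1 form of the core to which hypoxia-inducible factors bind. Other forms were not searched.
Tfrc: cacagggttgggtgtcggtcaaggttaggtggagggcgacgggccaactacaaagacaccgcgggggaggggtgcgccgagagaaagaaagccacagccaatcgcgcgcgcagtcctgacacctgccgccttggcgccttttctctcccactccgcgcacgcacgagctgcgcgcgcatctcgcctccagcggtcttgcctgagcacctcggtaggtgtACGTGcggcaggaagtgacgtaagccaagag
Cp: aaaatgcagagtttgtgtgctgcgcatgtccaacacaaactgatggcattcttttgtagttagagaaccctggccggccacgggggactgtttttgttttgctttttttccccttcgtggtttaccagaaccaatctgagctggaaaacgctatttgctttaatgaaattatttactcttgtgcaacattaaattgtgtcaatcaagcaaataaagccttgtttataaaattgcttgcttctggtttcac
The Tfrc stretch held 1 ACGTG, which begins 31 bases before the start, and the Cp stretch held none. Of 33469 promoter stretches of this length in the table, 16.6% held ACGTG. TGACNNNGC on either strand, the antioxidant response element of heme oxygenase and ferritin genes, was in neither stretch and in 10.1% of all. Of the other matched members, Slc40a1 held neither motif, and Hmox2 held 1 of each in 1 of its 2 annotated promoters and none in the other. A match of letters is a description and not a binding site, and no match says only that these letters are not in this window.

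Fth1 and Ftl1 encode the ferritin chains: the heavy chain oxidises iron for storage and the light chain helps to lay down the mineral core. Fth1 had log2 signals of 12.01, 12.51 and 12.17 on injured replicates 1, 2 and 3, and of 11.90, 12.19 and 12.24 on control replicates 1, 2 and 3. The groups overlapped, and the difference of 0.12 (SE 0.20, limma adjusted p = 0.685) turned to -0.49 with centring on background, to -0.41 with centring on the median of all probe sets and to -0.42 with quantile normalization. No direction can be given for Fth1.

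Ftl1 had log2 signals of 13.13, 12.91 and 12.61 on injured replicates 1, 2 and 3, and of 10.69, 13.32 and 13.28 on control replicates 1, 2 and 3. One control array, replicate 1, was far below every other array. The difference was 0.45 (SE 0.75, limma adjusted p = 0.685), and without control replicate 1 it was -0.42 (SE 0.23, adjusted p = 0.592), so its sign rests on that array. Control replicate 1 was also the array with the highest Tfrc.

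The genes whose profiles were most like that of Ftl1 carry ferritin light chain names. Profiles were compared after centring each gene on its own mean, by the root mean square difference over the 6 arrays, among 22074 genes that were not at the upper limit on any array. Ftl1l5 and Ftl1-ps5 were nearest, at 0.071 and 0.13 log2 units, followed by LOC102549852 at 0.16. Ftl1l5 read 11.70, 11.29 and 11.01 on the injured arrays, and 9.15, 11.74 and 11.63 on the control arrays, and thus was low on control replicate 1 as well. Probes for such copies may share targets with Ftl1, so its level is uncertain to that extent. For Fth1 no such neighbour can be singled out, since 9010 genes lay within 0.3 log2 units of its nearly level profile.

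Slc40a1 encodes ferroportin, the iron exporter of the cell membrane. It had log2 signals of 6.97, 7.07 and 7.30 on injured replicates 1, 2 and 3, and of 6.65, 7.21 and 7.41 on control replicates 1, 2 and 3. The injured arrays lay inside the control range, and the difference was 0.02 (SE 0.24, limma adjusted p = 0.951). With centring on background it was -0.59 (SE 0.30, adjusted p = 0.289), because the gene stood 1.38, 0.46 and 0.80 above background in the 3 injured rats and 1.16 to 1.63 above it in control tendon. Quantile normalization gave -0.38 and centring on the median of all probe sets -0.50, so no direction can be given for Slc40a1.

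Cp encodes ceruloplasmin, the copper-containing oxidase that works with ferroportin. It had log2 signals of 10.75, 7.48 and 7.52 on injured replicates 1, 2 and 3, and of 10.97, 12.29 and 11.48 on control replicates 1, 2 and 3. All injured arrays were below all control arrays, but replicate 1 by a margin of 0.22 only. The means were 8.58 ± 1.88 in injured tendon and 11.58 ± 0.67 in control tendon (SD, n = 3 each), a difference of -3.0 (SE 0.97), or 7.98-fold, with an unadjusted limma p of 0.0232 and an adjusted p of 0.322. Injured replicate 1 alone gave -0.83 (SE 0.57, adjusted p = 0.999), and injured replicates 2 and 3 without it gave -4.08 (SE 0.39, adjusted p = 0.00245). On injured replicates 2 and 3 Cp was 0.87 and 1.02 above background, so background limits how low it could read.

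Lists of other cell types were low on the same arrays as Cp. On injured replicates 1, 2 and 3 the tenocyte markers were at -3.96, -7.20 and -5.41 (9 of 10 below all control arrays), the adipocyte markers at -1.36, -2.60 and -2.42 (4 of 7) and the endothelial markers at 0.55, -2.64 and -2.63 (1 of 9). Summed linear signals were 2300 to 17800 in injured and 129000 to 1210000 in control tendon for tenocytes, 862 to 207000 in injured and 44500 to 344000 in control tendon for adipocytes, and 1980 to 29500 in injured and 11500 to 28200 in control tendon for endothelium. Adipoq and Fabp4, the brightest adipocyte markers, read 6.88 to 11.88 and 8.54 to 17.63 in injured tendon, and 14.14 to 17.52 and 14.59 to 17.19 in control tendon. Pecam1 and Emcn, the brightest endothelial markers, read 7.52 to 13.74 and 9.47 to 11.93 in injured tendon, and 11.17 to 12.83 and 12.32 to 13.30 in control tendon. The part of these cells in the Cp difference was not tested.

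**Figure D3:**
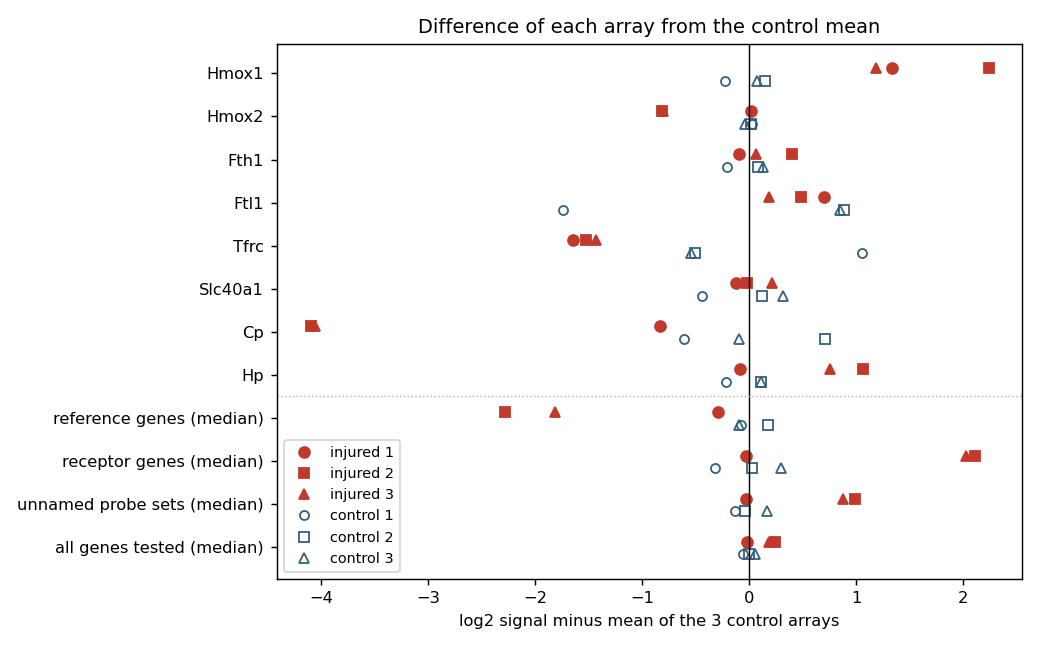
Log2 signal minus the control mean (horizontal axis) for each array, for the 8 genes and, under the dotted line, for the medians of reference genes, receptor genes, unnamed probe sets and all genes tested; filled red symbols are injured arrays, open blue symbols control arrays. Tfrc is displaced to a like extent on all 3 injured arrays (-1.65, -1.53 and -1.44), and Hmox1 to an unequal one (1.34, 2.24 and 1.19), while Hmox2, Cp and Hp are displaced on injured replicates 2 and 3 together with the medians below.

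The neighbours in profile of the other members were as follows. The genes most like Hmox1 were Csta, which encodes the protease inhibitor cystatin A, and Anos1, which encodes the matrix protein anosmin, at 0.24 and 0.25 log2 units, and the pseudogene Slpi-ps2 at 0.27, against a range of 2.46 for Hmox1 itself. Those most like Tfrc were Scn4b, a sodium channel subunit gene, and Car14, a membrane-bound carbonic anhydrase gene, at 0.15 and 0.17, then Limch1 at 0.18. Rnf13, which encodes an endosomal ubiquitin ligase, was most like Cp, at 0.21, followed by Mapk3-ps3 and Atp6ap1 at 0.25. Nearest were Ttc13, Akap8 and Cstf2 to Hmox2, Zfp710, Gna15 and Cmtm7 to Fth1, Sting1, Slc2a10 and Plagl1 to Slc40a1, and Slc24a5, Scnn1g and Hist1h2bd to Hp, the farthest at 0.092. Only 9, 21 and 7 genes lay within 0.3 log2 units of Hmox1, Tfrc and Cp, against 2479, 5982 and 6675 for Hmox2, Slc40a1 and Hp. These counts follow in part from how far a gene moves, since level profiles have many neighbours.

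Beyond the 8 members, 57 other genes of heme and iron handling were listed by role, and 53 of them were measured. None passed the threshold in either direction. Of the 53, 4 were above and 9 below all control arrays on all injured arrays, shares to be read against the 7.09% and 8% of all genes given above, and 1 was higher and 8 lower at an unadjusted p under 0.05. Of the 4 above, all but Slc39a14 read below the median unnamed probe set on injured replicates 2 and 3. The median difference over the 53 was -0.11, against 0.15 over all genes. On injured replicates 2 and 3 without replicate 1, 9 were higher and 16 lower at a limma adjusted p under 0.05, a smaller share than the 60.7% of all genes called there. Over all genes that comparison called 8635 higher and 4783 lower, so higher calls were the more frequent there and lower calls among the heme and iron genes. On these 2 arrays the median receptor gene lay 2.11 and 2.03 from the control mean, and the median reference gene -2.28 and -1.81. The balance of calls thus also differed between other sets of genes, and the part of signal level in it was not tested.

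**Figure D4:**
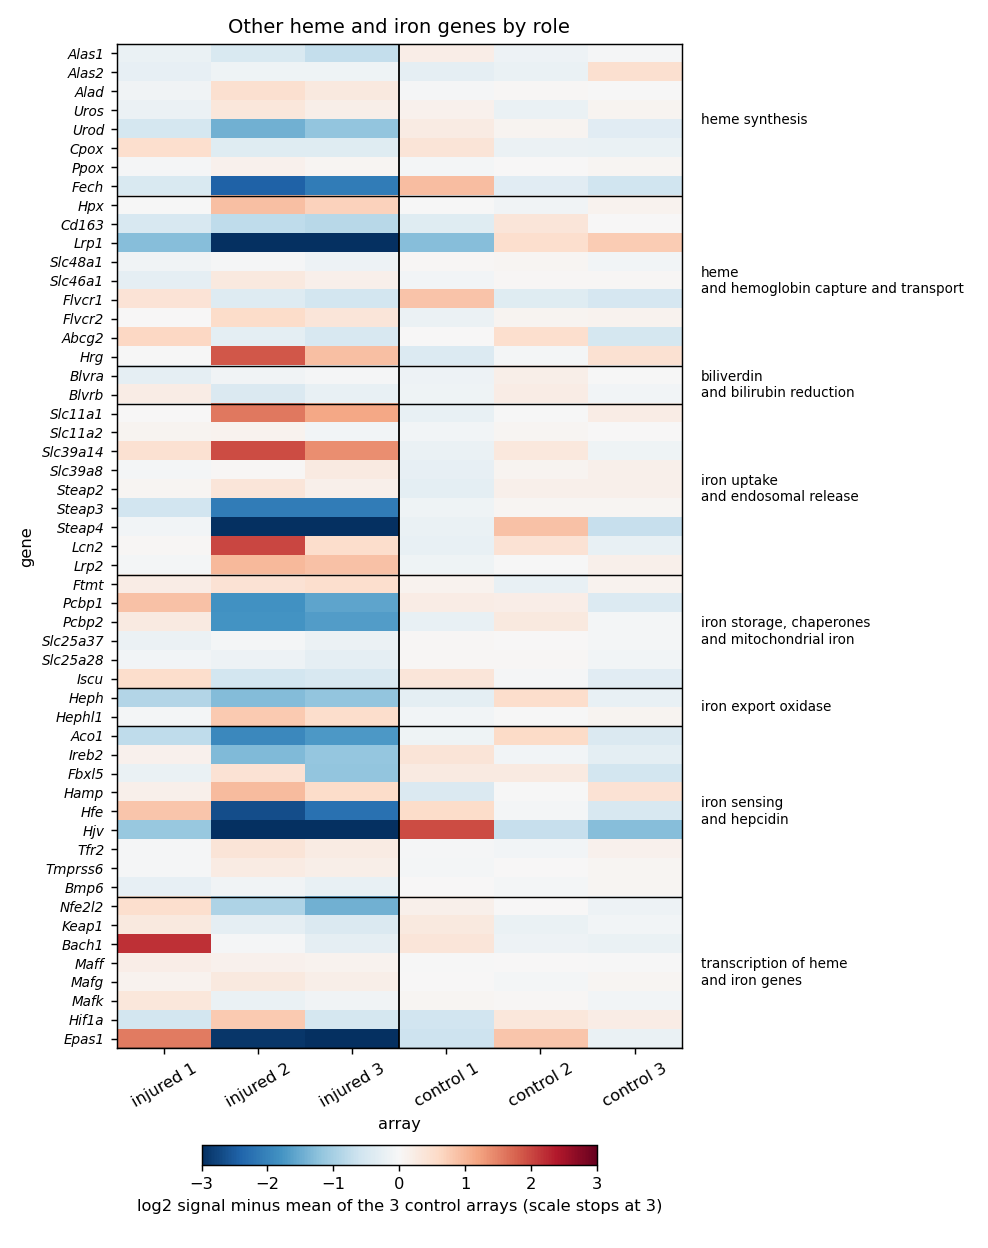
Log2 signal minus the control mean (colour) of the other heme and iron genes (rows, grouped by role) on each array (columns, injured left of control); the colour scale stops at 3 in both directions. Most strong colours are in the columns of injured replicates 2 and 3; Bach1 stands out on injured replicate 1, at 2.20.

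Heme synthesis had 8 of 9 listed genes measured, with 2 below all control arrays and none above. Urod, which makes coproporphyrinogen, read 8.65, 7.74 and 7.99 on the injured arrays, and 9.43, 9.27 and 8.83 on the control arrays, a difference of -1.05 (SE 0.30, limma adjusted p = 0.322), or -1.66 with centring on background. Alas1, which encodes the rate-limiting enzyme outside red cells, differed by -0.46 (SE 0.20). Fech, which inserts iron into the ring, differed by -1.66 (SE 0.66), with -0.47, -2.42 and -2.11 on injured replicates 1, 2 and 3.

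Capture and transport of heme and hemoglobin had 9 genes, 2 below all control arrays and none above. Cd163, the macrophage receptor for haptoglobin-hemoglobin complexes, read 7.76, 7.48 and 7.41 on the injured arrays, and 7.88, 8.61 and 8.25 on the control arrays, a difference of -0.70 (SE 0.24, limma adjusted p = 0.322), or -1.31 with centring on background. Lrp1, which takes up heme bound to hemopexin among many other ligands, differed by -2.87 (SE 0.91). Flvcr1, a transporter at the cell membrane, differed by -0.18 (SE 0.46). Blvra and Blvrb encode the reductases that work on the product of heme oxygenase, and each differed by -0.14 (SE 0.16 and 0.23). With centring on background each differed by -0.75 (SE 0.28 and 0.47). With array quality weights Blvrb passed the threshold (-0.37, limma adjusted p = 0.04), as did 16098 of the 22093 genes tested, so that call does not single it out.

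Iron uptake had 9 of 10 listed genes measured, with 1 above and 1 below all control arrays. Slc39a14, a metal importer for iron not bound to transferrin, read 7.58, 9.08 and 8.52 on the injured arrays, and 6.93, 7.45 and 7.01 on the control arrays. It was above all control arrays on all injured arrays, with a difference of 1.26 (SE 0.41, unadjusted limma p of 0.0236, adjusted p = 0.322), and replicate 1 exceeded the highest control by little. Centring on background gave 0.65 (SE 0.25), and centring on the median of all probe sets 0.74 (SE 0.26). Steap3, the endosomal reductase that prepares transferrin iron for release, read 8.38, 6.85 and 6.84 on the injured arrays, and 8.81, 9.01 and 9.01 on the control arrays, a difference of -1.59 (SE 0.45). Steap4, a related reductase, differed by -2.26 (SE 1.01), with -0.07 on injured replicate 1.

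Heph, which encodes hephaestin, the membrane-bound relative of ceruloplasmin, read 6.29, 5.86 and 5.98 on the injured arrays, and 6.87, 7.70 and 6.94 on the control arrays. Its groups did not overlap, and its difference of -1.13 (SE 0.28, unadjusted limma p of 0.0076, adjusted p = 0.322) was -0.88, -1.31 and -1.19 on injured replicates 1, 2 and 3. Centring on background gave -1.74, but on injured replicates 2 and 3 Heph was at -0.75 and -0.52 against the median unnamed probe set. Background thus limits how low it could read there. Hephl1, a further relative, was 0.70 to 1.10 below the median unnamed probe set on all 6 arrays. Of 6 genes of storage and mitochondrial iron measured, 1 was above and 1 below all control arrays. Both read low: the gene above was at -1.53 to -0.74 against the median unnamed probe set over the 6 arrays. The gene below was at -1.15 to -0.24 on the injured arrays. The iron chaperones Pcbp1 and Pcbp2 and the iron-sulfur scaffold Iscu were above the control mean on injured replicate 1 (0.87, 0.26 and 0.53) and below it on replicate 2 (-1.82, -1.80 and -0.55) and replicate 3 (-1.58, -1.67 and -0.47).

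Of 9 genes for iron sensing and hepcidin control, 2 were below all control arrays. Ireb2, which encodes iron regulatory protein 2, differed by -0.78 (SE 0.44), with 0.14 on injured replicate 1. Aco1, which encodes iron regulatory protein 1 and was chosen after its values were seen, read 8.10, 6.91 and 7.13 on the injured arrays, and 8.73, 9.42 and 8.41 on the control arrays, a difference of -1.47 (SE 0.42, limma adjusted p = 0.322). Hjv, the hemojuvelin gene, which is active in skeletal muscle and liver, differed by -4.62 (SE 1.69). It moved with the muscle markers, at -1.15, -6.33 and -6.40 on injured replicates 1, 2 and 3, and their part was not tested. On replicates 2 and 3 Hjv was at -0.89 and -0.85 against the median unnamed probe set. Fbxl5, the ubiquitin ligase subunit that removes iron regulatory protein 2, differed by -0.32 (SE 0.47).

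Regulators of transcription showed no shared direction, with 4 of 8 above and 4 below the control mean. Of the 8, 2 were above all control arrays and none below. Both of these read below the median unnamed probe set on injured replicates 2 and 3. Bach1, which encodes a heme-sensing repressor of Hmox1, read 10.24, 8.01 and 7.77 on injured replicates 1, 2 and 3, and 8.41, 7.88 and 7.83 on control replicates 1, 2 and 3. It was thus 2.20 above the control mean in the first injured rat only. Hif1a and Epas1, the genes of hypoxia-inducible factors, differed by -0.10 (SE 0.46) and -1.47 (SE 1.34). Epas1 lay 1.57, -2.92 and -3.07 from the control mean in the 3 injured rats.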

How the data were processed

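Tendon RNA of 6 rats, 3 injured and 3 control, was measured on 1 Affymetrix rat array each, as the sample titles name it; the labels' protocols name a mouse array, but the probe sets carry rat gene names. The authors deposited log2 signals of 68842 probe sets, and the submitters' processing notes name Affymetrix Expression Console; the sources used here give neither its version nor the normalization. Arrays have no read depth, so their number limits precision.

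The platform annotation names 1 gene for 23446 probe sets, several for 505 and none for 44891. Entrez identifiers matched 22077 of them to RefSeq genes (GRCr8) and changed 1 symbol. Per gene, the probe set of highest mean was kept. Values were used as deposited. Injured was compared with control in limma 3.58.1 (R 4.3.3; lmFit, eBayes, two-sided, Benjamini-Hochberg over 22093 genes). Nothing says how the biological replicates were raised or housed, so p-values measure the spread between these samples. The members and lists were chosen with earlier results of these data known. Named are the 3 genes of highest mean in each pathway list, the 2 of highest mean in each marker list, genes past the threshold, and the 3 genes most like each member in profile. Scripts were tested on simulated data. Alternatives were other normalizations, filters, probe set choices, fits and sets of arrays.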

Additional observations from a re-analysis of the deposited data

How the results depend on the processing

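Over the 8 members and 22 named pathway genes, 18 alternatives gave 539 differences. Of these, 436 kept their direction and side of the threshold, 60 passed the threshold and 43 turned direction. The setting without injured replicate 1 and that of injured replicates 2 and 3 against the controls are the same fit, which these totals count 2 times. Hmox1, Tfrc and Cp kept their direction under all 18. Without 1 array at a time, 0 to 13418 genes, 0 to 4 members and 0 to 25 pathway genes passed, the highest counts without injured replicate 1, as for injured replicates 2 and 3 against the controls (13418, 4 and 25). Array quality weights, fitted gene by gene because the default fit did not converge, gave injured replicate 1 a weight of 0.07 and called 16098 genes, 5 members and 30 pathway genes. Injured replicate 1 alone against the controls called 9 genes, 0 members and 0 pathway genes, with 1457 genes at an unadjusted p under 0.05. All other alternatives called 0 genes, with 810 to 4565 at an unadjusted p under 0.05.

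Quantile normalization turned Fth1 (-0.42), Slc40a1 (-0.38) and Hephl1 (-0.0447). Centring on the median of all probe sets turned Fth1 (-0.41), Ftl1 (-0.0733), Slc40a1 (-0.50) and Hephl1 (-0.11). Centring on unnamed probe sets turned Fth1 (-0.49), Ftl1 (-0.16), Slc40a1 (-0.59), Hp (-0.0333) and Hephl1 (-0.20). Array weights turned Ftl1 (-0.22) and Bach1 (-0.0877). Injured replicate 1 alone turned Hmox2 (0.0133), Fth1 (-0.10), Slc40a1 (-0.12), Hp (-0.0833), Flvcr1 (0.41), Blvrb (0.23), Pcbp2 (0.26), Iscu (0.53), Pcbp1 (0.87), Hephl1 (-0.0633), Ireb2 (0.14) and Epas1 (1.57). Injured replicates 2 and 3 turned Hif1a (0.13) and Bach1 (-0.15). Without 1 array at a time, Fth1 ranged over -0.02 to 0.23, Ftl1 -0.42 to 0.90, Slc40a1 -0.20 to 0.18, Flvcr1 -0.47 to 0.25, Blvrb -0.33 to 0.0033, Iscu -0.51 to 0.03, Fbxl5 -0.69 to 0.11, Hif1a -0.54 to 0.13 and Bach1 -0.15 to 1.09. The cause was not tested, beyond the arrays each setting leaves out.

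With the replicate number as a block, 0 genes, 0 members and 0 pathway genes passed, and 4565 genes had an unadjusted p under 0.05. Same-numbered arrays deviated from their group means together at r = 0.48 and 0.589 for numbers 1 and 3 and at -0.043 for number 2. Of the 3, 2 correlated best with their own number. The numbers were not taken as pairs in the main fit, because the labels do not say what a replicate number shares. Background limits the levels of Hmox1 in control tendon, of Hp on all arrays and of Cp on injured replicates 2 and 3. On these 2 arrays it also limits named pathway genes, among them Heph, Hjv, Fech, Pcbp1, Steap3 and Epas1.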

Other observations

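Differences between members of 2 pairs were formed within each array after the data were seen, from genes whose values were known, so they are a description with no test. A shift of a whole array cancels in them; a change in the spread of an array's values, as under quantile normalization, does not. Hmox1 minus Hmox2 was -2.30, -0.57 and -1.63 on injured replicates 1, 2 and 3, and -3.87, -3.49 and -3.51 on control replicates 1, 2 and 3. The Hmox1 signal thus stood closer to that of Hmox2 on each injured array, by 2.12 on average as deposited and by 1.71 after quantile normalization. Part of this comes from Hmox2, which lay -0.82 and -0.81 from its control mean on injured replicates 2 and 3.

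Tfrc minus Fth1 was -4.42, -4.80 and -4.37 on injured replicates 1, 2 and 3, and -1.61, -3.46 and -3.55 on control replicates 1, 2 and 3. It compares the messengers of an uptake gene and a storage gene, and measures neither iron uptake nor storage. The difference between the groups was -1.66 as deposited and -1.26 after quantile normalization. It rests in part on control replicate 1, without which it was -1.02. The settings without that array and with quantile normalization were added here after the data were seen.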
